A study of Homo sapiens with 14 samples.

Results

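The genes described here are 10 regulators of the G1 phase of the cell cycle: the D-type cyclin genes CCND1, CCND2 and CCND3, the E-type cyclin genes CCNE1 and CCNE2, the kinase genes CDK2, CDK4 and CDK6, the transcription factor gene E2F3 and the pocket protein gene RB1. They were chosen by name for these roles, with earlier results of these libraries already known. For each gene, every called region that touched the gene span or the 20 kb on either side was taken from 9 peak lists, on GRCh38. The 10 genes were set beside all 20037 protein-coding genes of the gene table, treated in the same way. HS-SY-II cells, a human synovial sarcoma line, were given DMSO alone or 100 nM WA-68, a PROTAC degrader of BRD9, for 12, 24, 48 or 96 h. Chromatin was precipitated for GLTSCR1 (DMSO, 12, 24, 48 and 96 h) or with anti-HA for the tagged SS18::SSX fusion (DMSO, 12, 24 and 48 h). The labels give the genotype of all cells as WT, do not say how the HA tag was introduced, and give no time for DMSO. Time in culture and time of WA-68 cannot be told apart.

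D-type cyclins bind CDK4 and CDK6 in early G1, and these kinases phosphorylate RB1. RB1 holds E2F factors such as E2F3 in check, and its phosphorylation frees them to switch on S-phase genes, CCNE1 and CCNE2 among them. Cyclin E with CDK2 phosphorylates RB1 further and drives entry into S phase. GLTSCR1 (gene BICRA) and BRD9 are subunits of GBAF, a form of the BAF chromatin remodelling complex. SS18::SSX joins part of SSX to the BAF subunit SS18 and is the defining oncoprotein of synovial sarcoma.

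Each group had 1 library, so there is no replicate error, no test between times was possible and no p-value is given. The lists held 13677 to 18037 GLTSCR1 regions and 24846 to 28619 fusion regions on the standard chromosomes. Read depth is unknown from peak lists: a region missing from a list was below the authors' calling threshold there, and the protein may still have been present. All folds are the authors' fold enrichment of a summit over local background, and are compared only with other folds of the same list. Differences in fold between lists therefore show no change in binding. The lists measure neither BRD9 protein nor RNA, so they do not show the extent of BRD9 loss or the expression of these genes or of markers of the cell line.

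GLTSCR1 was called at 9 of the 10 genes in DMSO, and at 9, 8, 7 and 6 of them after 12, 24, 48 and 96 h of WA-68. Among all protein-coding genes the shares were 50.3%, 47.2%, 36.6%, 28.8% and 35.8% at these times. The genes with GLTSCR1 in all 5 lists were CCND1, CCND2, CDK6, E2F3 and RB1, 5 of 10 against 19.5% of all genes. Fusion regions lay at 5 of the 10 genes in DMSO and at 6, 5 and 8 of them after 12, 24 and 48 h, with 33.9%, 33.6%, 30.9% and 32.7% of all genes at these times. CCND1, CCND2, CDK4 and CDK6 had the fusion in all 4 of its lists, 4 of 10 against 20.1% of all genes. CCND1, CCND2 and CDK6 were in all 9 lists, 3 of 10 against 11.6% of all genes. CDK2, the kinase that pairs with cyclin E, had no region in any list, as did 31.7% of all genes. It spans chromosome 12 from 55966830 to 55972789, and with 50 kb in place of 20 kb on either side GLTSCR1 regions were counted for it in DMSO and at 12 and 24 h. The share of all genes with 50 kb on either side was not counted.

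**Figure D1:**
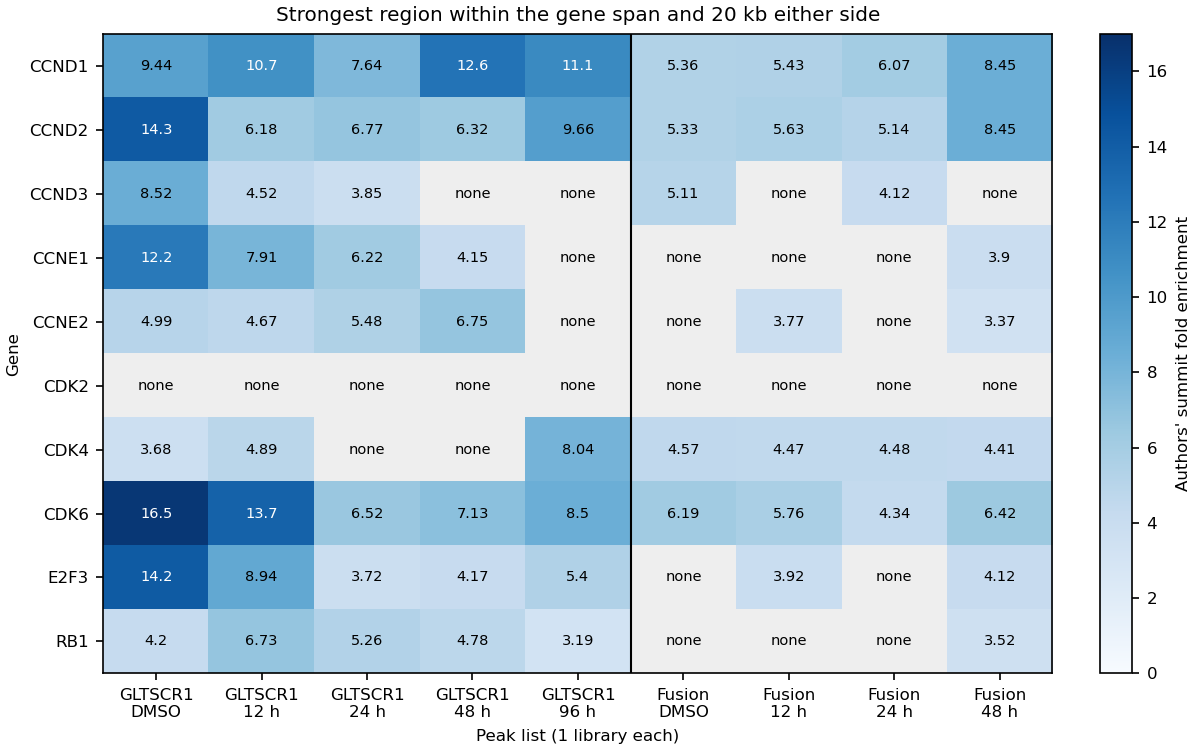
The strongest called region of each gene (rows) in each peak list (columns), within the gene span and 20 kb either side; the number and the shade give the authors' summit fold enrichment and grey cells had no region. CCND1, CCND2 and CDK6 have a value in all 9 lists, and CDK2 in none.

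The 10 genes had a median span of 24.0 kb, against 24.1 kb over all protein-coding genes, but RB1 (178 kb), CDK6 (232 kb), CCND3 (115 kb) and E2F3 (91.8 kb) were far longer. In all, 24 GLTSCR1 regions lay at the 10 genes in DMSO, and 22, 16, 15 and 21 after 12, 24, 48 and 96 h. Their summed length was 27.8 kb in DMSO and 20.2, 12.3, 10.6 and 12.6 kb after these times. The whole GLTSCR1 lists also covered less after DMSO: 16.8 Mb in DMSO and 11.1, 10.5, 8.55 and 10.3 Mb later. The shorter GLTSCR1 regions given below for single genes are to be read beside these totals. Per 100 kb of window there were 2.18 regions in DMSO and 2.0, 1.45, 1.36 and 1.91 at the later times, with 1.10, 0.977, 0.789, 0.693 and 0.842 over all genes. Fusion regions numbered 16 in DMSO and 16, 23 and 22 after 12, 24 and 48 h, with summed lengths of 19.4, 20.5, 15.6 and 19.5 kb. The whole fusion lists covered 33.9, 36.4, 30.3 and 33.4 Mb. Per 100 kb there were 1.45, 1.45, 2.09 and 2.0 at the 10 genes, with 1.24, 1.37, 1.21 and 1.27 over all genes. With regions within 500 bp of each other joined, the GLTSCR1 regions numbered 20 in DMSO and 20, 14, 14 and 14 after 12, 24, 48 and 96 h. The higher GLTSCR1 count at 96 h than at 48 h was thus not seen after joining. Joined in the same way, the fusion regions numbered 13 in DMSO and 11, 14 and 17 after 12, 24 and 48 h. Taking the gene spans alone left 12, 9, 9 and 10 GLTSCR1 regions after 12, 24, 48 and 96 h, and 8, 10, 10 and 12 fusion regions in DMSO and after 12, 24 and 48 h, since many regions lay outside the spans. On the spans alone, GLTSCR1 was at 5 of the 10 genes at 24 h and the fusion at 3 in DMSO. The same was not counted over all genes for the spans alone.

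CCND1, which encodes cyclin D1, spans chromosome 11 from 69641156 to 69654474. Positions below are counted from the 5′ end of the span in the direction of transcription, with negative values upstream; the gene table used gives no exons or introns, so sites inside a gene are placed by distance alone. In DMSO, GLTSCR1 occupied 4 regions: an upstream one at 69636359 to 69639719 (fold 9.44), one over the 5′ end at 69640274 to 69641850 (9.41), and others inside the gene with summits at 1.04 kb (4.50) and 2.30 kb (5.76). At 12 h the upstream region had a fold of 10.7, and a region with its summit at −0.57 kb had 6.09. From 24 h on no GLTSCR1 region was called within 1 kb of the 5′ end. The upstream area and the internal site near 2.3 kb were called at every time.

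The internal site of CCND1 was narrow, and its strongest summits in the 5 GLTSCR1 lists lay within 60 bp of each other. Its GLTSCR1 folds were 5.76 in DMSO and 8.24, 7.64, 12.6 and 11.1 after 12, 24, 48 and 96 h. The strongest other region of the gene had 9.44, 10.7, 6.63, 8.02 and 6.40 in the same lists. The internal site was thus weaker than the upstream area in DMSO and at 12 h and stronger in the lists of 24, 48 and 96 h. As a ratio within each list, the site stood at 0.610 in DMSO and at 0.774, 1.15, 1.57 and 1.74 after 12, 24, 48 and 96 h. This site, and the like one in CCND2, were picked out after their values had been seen.

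The fusion was called at CCND1 in all 4 lists, with 5 regions in DMSO and 5, 4 and 6 after 12, 24 and 48 h. Its strongest folds were 5.36, 5.43, 6.07 and 8.45. A fusion region overlapped the internal GLTSCR1 site at every time, with folds of 5.36 in DMSO and 4.93, 6.07 and 7.95 after 12, 24 and 48 h. Against the strongest other fusion region the ratio was 1.04, 0.908, 1.28 and 0.940, with no ordered course over time. The base at the 5′ end itself lay in a fusion region at 12 and 48 h, and in a GLTSCR1 region in DMSO alone.

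CCND2, which encodes cyclin D2, spans chromosome 12 from 4273762 to 4305353. In DMSO its strongest GLTSCR1 region was 1 of 4936 bp with 8 summits, at 4269113 to 4274048, which ran from upstream across the 5′ end and had a fold of 14.3. At 12 h the same stretch held 3 separate regions, with folds of 6.02, 6.18 and 3.54. At 24 h it held 2, with 5.33 and 3.18. At 48 h regions with folds of 4.04 and 6.32 lay there, and at 96 h regions with 4.04 and 4.03. The long DMSO region was thus overlapped in every later list, but by shorter pieces.

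An internal GLTSCR1 site was also called at CCND2 in all 5 lists, with its strongest summit between 3.29 and 3.33 kb and within 45 bp across lists. The folds there were 3.69 in DMSO and 5.81, 6.77, 5.59 and 9.66 after 12, 24, 48 and 96 h. The strongest other region had 14.3, 6.18, 5.33, 6.32 and 4.51. Its place differed between lists. The summit lay at −1.11 kb in DMSO and at −0.994, −2.50 and −1.12 kb after 12, 24 and 48 h. At 96 h the strongest other region was inside the gene, at 1.26 kb. The within-list ratio was 0.259 in DMSO and 0.939, 1.27, 0.883 and 2.14 after 12, 24, 48 and 96 h. The site was the strongest of the gene at 24 and 96 h and not in DMSO or at 12 and 48 h. A further region past the 3′ end, just before TIGAR, was called in DMSO and at 12, 24 and 96 h, with folds of 3.36, 4.64, 3.56 and 3.21.

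The fusion covered the upstream side of CCND2 in every list. In DMSO it formed 1 region of 5059 bp with 9 summits (fold 5.33), and at 12 h 1 of 3665 bp (5.63). At 24 h the gene held 7 fusion regions, the strongest at 5.14, and at 48 h 3, the strongest at 8.45. The internal site carried the fusion at 12 h (4.00) and 24 h (5.06) and not in DMSO or at 48 h.

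**Figure D2:**
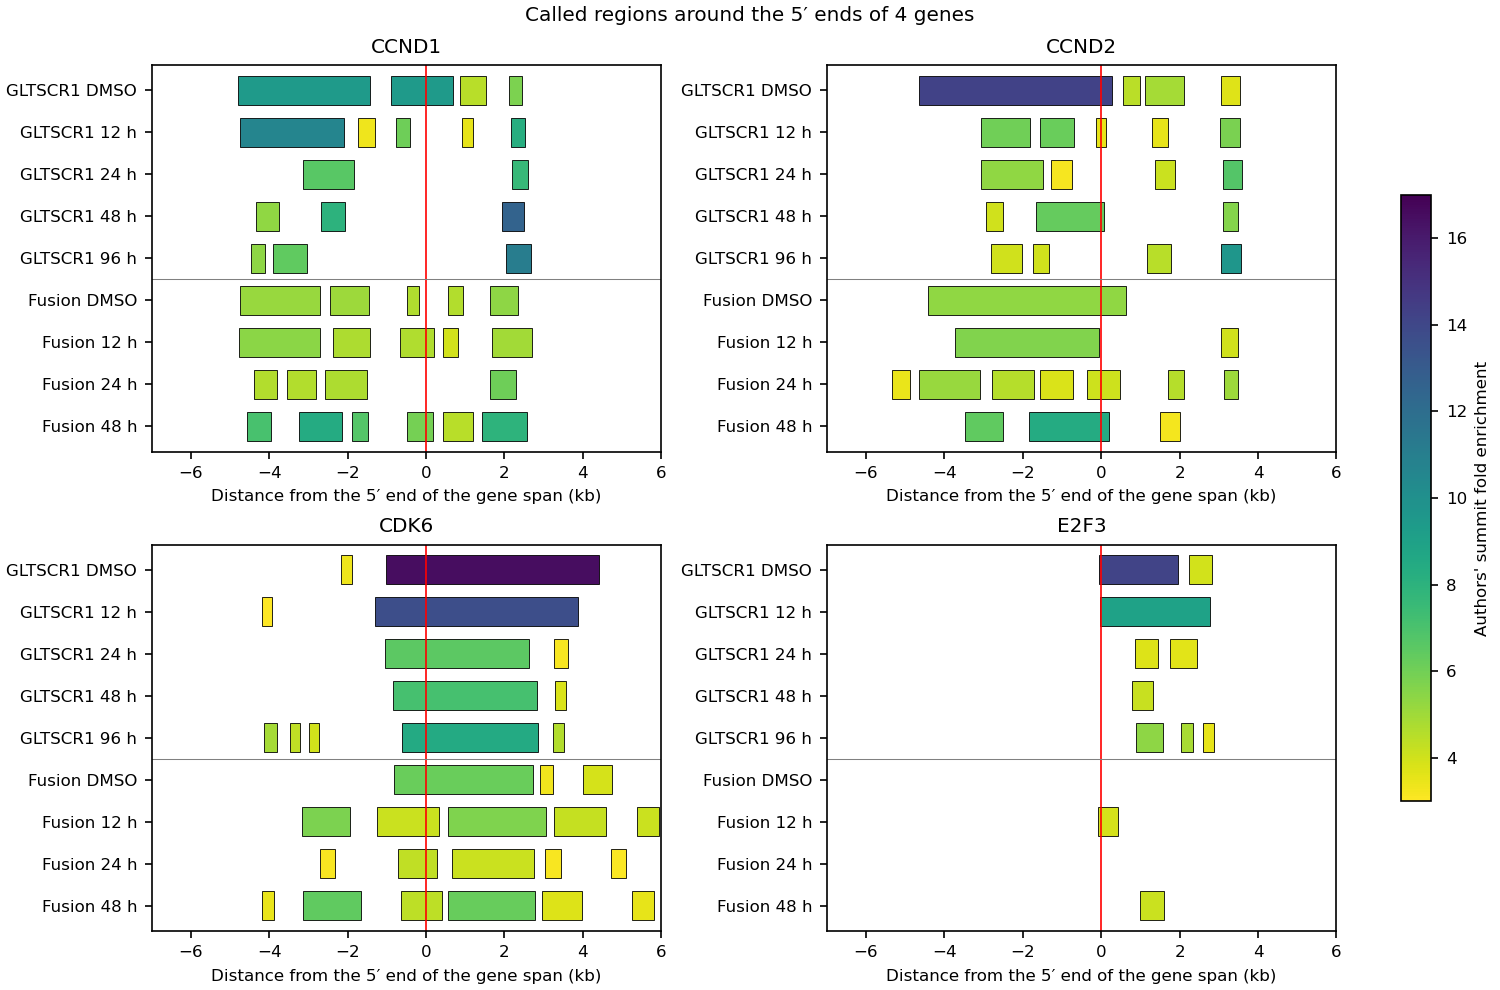
Called regions near the 5′ ends of CCND1, CCND2, CDK6 and E2F3, with distance from the 5′ end in kb on the horizontal axis (negative upstream, red line at 0) and 1 row for each peak list; the colour gives the authors' summit fold enrichment. The internal GLTSCR1 sites of CCND1 and CCND2 appear in all 5 GLTSCR1 lists, while the regions at the 5′ ends differ between lists.

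**Figure D3:**
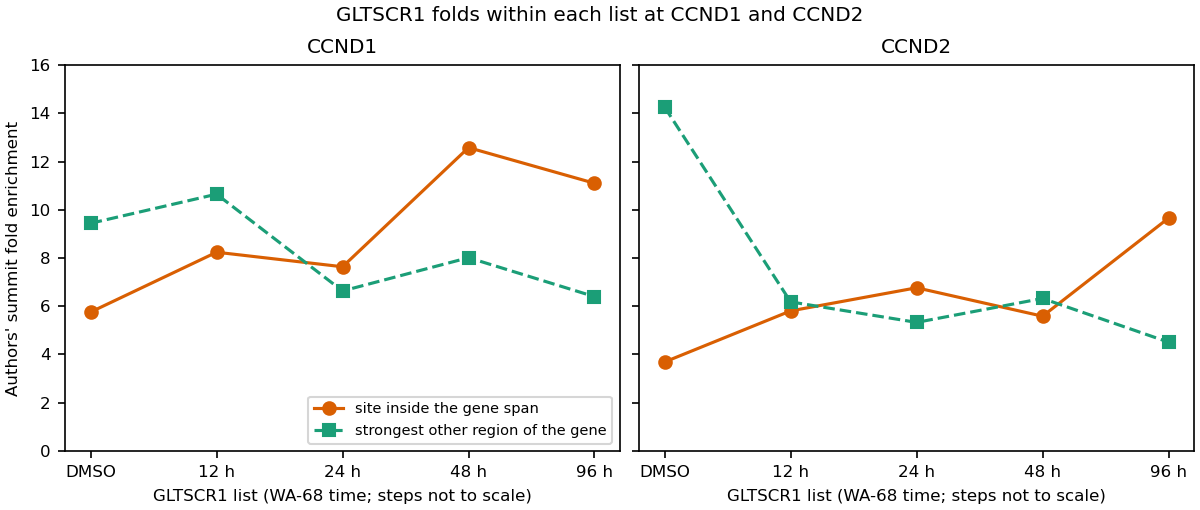
GLTSCR1 fold of the internal site (circles) and of the strongest other region of the gene (squares) at CCND1 and CCND2 in each of the 5 GLTSCR1 lists, 1 library each; only the 2 points of 1 list can be compared. At CCND1 the internal site is the higher point at 24, 48 and 96 h, and at CCND2 at 24 and 96 h.

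How often a gene's strongest GLTSCR1 region overlapped its strongest DMSO region was counted for all genes with a region in both lists. Of the genes described here it did so for 7 of 9, 3 of 8, 5 of 7 and 3 of 6 after 12, 24, 48 and 96 h. Over all protein-coding genes the shares were 63.1%, 53.5%, 53.0% and 54.4%. A change in which region was strongest was thus common at genes in general. Only CCND1, CCND2, CDK6, E2F3 and RB1 had GLTSCR1 in DMSO and at 24, 48 and 96 h. Among these, the strongest region had moved at all of these times at CCND1 alone. The share of all genes in which it did so was not counted. At CCNE2 it had moved at 24 and 48 h, and no region was called at 96 h.

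CCND3, which encodes cyclin D3, spans chromosome 6 from 41934933 to 42050035 and reads toward lower coordinates. In DMSO a GLTSCR1 region at 42048584 to 42049188 (fold 8.52) covered a RefSeq start 1.35 kb inside the span, and a region at 42050325 to 42050823 (5.57) lay at −0.61 kb, over the neighbour TAF8. Both were called at 12 h, with 4.15 and 4.50. At 24 h the TAF8 side alone was called (3.85), and at 48 and 96 h no GLTSCR1 region was called in the window. CCND1 and CCND2, by contrast, had GLTSCR1 regions in these lists. A region far past the 3′ end, over the neighbour BYSL, was called in DMSO (5.23) and at 12 h (4.52). The fusion was called over the TAF8 side in DMSO (5.11). At 24 h it had other regions, at 4.17 kb (4.12) and 109 kb (3.46), and at 12 and 48 h none.

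CDK6, a kinase partner of the D-type cyclins, spans chromosome 7 from 92604921 to 92836573, also toward lower coordinates. It had the strongest GLTSCR1 region of the 10 genes in DMSO and at 12 h. That region covered 5449 bp with 8 summits in DMSO (92832147 to 92837595, fold 16.5). After 12, 24, 48 and 96 h it covered 5181, 3668, 3692 and 3457 bp, with folds of 13.7, 6.52, 7.13 and 8.50. In all 5 lists it covered the 5′ end and the second RefSeq start, 2.61 kb inside. Its inner edge lay at 4.43 kb in DMSO and 3.89 kb at 12 h, and at 2.62, 2.84 and 2.85 kb at the later times, when a small separate region was called near 3.4 kb (3.15, 3.80 and 4.60). The RefSeq promoter window at the 5′ end of CDK6 (GRCh38.p14, chr7:92836524-92836823, minus strand) is shown because both proteins were called over it in every list. Capitals mark the E-box CACGTG.

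CDK6 5′ start: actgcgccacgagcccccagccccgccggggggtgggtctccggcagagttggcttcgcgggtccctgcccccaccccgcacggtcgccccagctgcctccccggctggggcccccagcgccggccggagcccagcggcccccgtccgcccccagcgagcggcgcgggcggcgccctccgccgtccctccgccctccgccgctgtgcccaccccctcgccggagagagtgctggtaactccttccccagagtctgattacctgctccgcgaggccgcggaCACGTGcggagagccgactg

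The fusion was also called over both CDK6 starts in all 4 lists. In DMSO this was 1 region of 3552 bp at 92833835 to 92837386 (fold 6.19). At 12 h a region over the 5′ end (4.14) and one over the second start (5.68) stood apart, as they did at 24 h (4.34 and 4.10) and 48 h (4.41 and 6.23). A fusion region upstream of CDK6 was called in each treated list and not in DMSO, with its summit at −2.41, −2.46 and −2.26 kb after 12, 24 and 48 h. Its folds were 5.76, 3.14 and 6.42, so that it was the strongest fusion region of the gene at 12 and 48 h and among the weakest at 24 h. GLTSCR1 had a region in DMSO (summit at −2.04 kb, fold 3.34) where the upstream fusion regions of 12 and 48 h lay, but not that of 24 h. No later GLTSCR1 region overlapped it. Farther upstream GLTSCR1 was called at 12 h (summit at −4.15 kb, 3.02) and at 96 h, with summits at −2.93, −3.34 and −3.94 kb (3.97, 4.33 and 4.86). The 96 h region at −2.93 kb lay inside the upstream fusion regions of 12 and 48 h. The region at −3.94 kb overlapped the GLTSCR1 region of 12 h, and the fusion was called there at 48 h (−4.03 kb, 3.47).

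Inside CDK6, GLTSCR1 was called near 145 kb at 12 h (3.33), 48 h (5.79) and 96 h (4.86), and not in DMSO or at 24 h. Near 215 kb it was called at 24 h (3.91) and 48 h (4.06). A DMSO region at 141 kb (5.02) and one past the 3′ end over FAM133B (4.67) were in no later GLTSCR1 list. Both carried the fusion in DMSO, and the FAM133B one did again at 48 h (3.97). The first few kb of CDK6 were therefore the only part of the gene in which GLTSCR1 was called in every list.

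CDK4, the other partner of the D-type cyclins, spans chromosome 12 from 57747727 to 57752310. GLTSCR1 was called at its 5′ end in DMSO (57751723 to 57752229, fold 3.34), at 12 h (4.89) and at 96 h (3.85), and not at 24 or 48 h. The fusion regions counted for CDK4 did not touch its own span. They lay mainly inside the neighbour AGAP2, with strongest folds of 4.57 in DMSO and 4.47, 4.48 and 4.41 after 12, 24 and 48 h, and otherwise over METTL1, MARCHF9 or CYP27B1. GLTSCR1 was called inside AGAP2 in DMSO (3.68) and at 96 h (8.04). The fusion call at CDK4 in all 4 lists is thus a call at a neighbouring gene, and with the span alone CDK4 had none.

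CCNE1, which encodes cyclin E1, spans chromosome 19 from 29811991 to 29824312. It carried a single GLTSCR1 region, upstream of the 5′ end, at 29810850 to 29811678 in DMSO. The region had a fold of 12.2 and a width of 829 bp in DMSO, 7.91 and 499 bp at 12 h, 6.22 and 429 bp at 24 h, and 4.15 and 293 bp at 48 h. At 96 h it was not called. The summits stayed between −0.63 and −0.82 kb, and no region reached the RefSeq promoter window of the gene. The fusion was in no list near this site. Its single region at CCNE1, at 48 h (3.90), lay past the 3′ end, 32.6 kb from the 5′ end and close to the limit of the window.

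CCNE2, which encodes cyclin E2, had a GLTSCR1 region over its 5′ end in DMSO (fold 4.99), at 12 h (4.67) and at 48 h (3.16), on chromosome 8 at 94896229 to 94896971 in DMSO. That end overlaps the neighbour NDUFAF6. At 24 h (5.48) and 48 h (6.75) a region lay at −8.65 and −8.72 kb, inside NDUFAF6. At 96 h none was called. Fusion regions were called inside CCNE2 at 12 h (3.77) and 48 h (3.37). Both E-type cyclin genes, like the D-type gene CCND3, were without GLTSCR1 in the 96 h list, in which CCND1 and CCND2 had 4 and 5 regions. Of all protein-coding genes, 35.8% had a GLTSCR1 region in that list.

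E2F3, which encodes an activator E2F, spans chromosome 6 from 20401879 to 20493714 and has 2 RefSeq starts, at the 5′ end and 1.74 kb inside. In DMSO, GLTSCR1 covered both in 1 region of 2003 bp (20401823 to 20403825, fold 14.2), and at 12 h in 1 of 2811 bp (8.94). From 24 h on the strongest regions were shorter, with 595, 535 and 694 bp after 24, 48 and 96 h (folds 3.72, 4.17 and 5.40). These began 0.854, 0.786 and 0.892 kb inside the gene, so the first start was in no GLTSCR1 region after 12 h. The window of the second start was overlapped in DMSO and at 12, 24 and 96 h, and not at 48 h. The summits stayed between 0.96 and 1.21 kb in all 5 lists. In each list this strongest region also overlapped the span of another protein-coding gene, LOC124901482.

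Both E2F3 windows (GRCh38.p14, plus strand, chr6:20401629-20401928 and chr6:20403364-20403663) are shown because GLTSCR1 calls at them differed between lists. Capitals mark the E2F core, written on either strand as TTCCCGC or else TTCGCGC, and likewise as TTGGCGC or else TTGCCGC, and the E-box CACGTG.
E2F3 first start: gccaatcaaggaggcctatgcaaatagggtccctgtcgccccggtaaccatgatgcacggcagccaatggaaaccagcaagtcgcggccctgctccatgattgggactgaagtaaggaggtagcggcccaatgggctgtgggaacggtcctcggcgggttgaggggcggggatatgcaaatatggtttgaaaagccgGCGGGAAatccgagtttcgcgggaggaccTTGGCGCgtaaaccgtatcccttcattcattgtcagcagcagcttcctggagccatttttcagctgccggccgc
E2F3 second start: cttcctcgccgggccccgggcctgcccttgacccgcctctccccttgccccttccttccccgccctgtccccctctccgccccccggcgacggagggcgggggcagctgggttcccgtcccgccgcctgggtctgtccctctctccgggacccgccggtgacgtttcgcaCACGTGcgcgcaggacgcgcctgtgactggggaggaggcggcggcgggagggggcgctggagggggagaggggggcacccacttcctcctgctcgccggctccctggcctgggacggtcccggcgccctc

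The first window held 2 E2F cores, starting at bases 198 and 227 of the window, and no E-box. The second held 1 E-box, at base 171, and no E2F core. Over all 35116 RefSeq promoter windows of this length, 13.0% held an E2F core and 7.26% an E-box. The windows had 20 and 32 CpG, and the CDK6 window above 37, against a median of 14.0 over all windows. A match to these letters is a description and not evidence of a bound site. The fusion was called over the first start of E2F3 at 12 h (3.92) and between the starts at 48 h (4.12), reaching the second window, and not in DMSO or at 24 h. The fusion region of 12 h also overlapped LOC124901482.

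RB1, which encodes the retinoblastoma protein, spans chromosome 13 from 48303751 to 48481890. GLTSCR1 was called at its 5′ end in DMSO (48303181 to 48303919, fold 4.20), at 12 h (6.73), at 48 h (4.78) and at 96 h (3.19). At 24 h the single region lay 31.0 kb inside the gene (5.26). RB1 thus had a GLTSCR1 region in every list but not at the same place. The fusion was called there at 48 h alone, over the 5′ end (3.52).

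At the 5′ ends (1 kb either side), GLTSCR1 was called at 9 of the 10 genes in DMSO and at 9, 5, 6 and 4 of them after 12, 24, 48 and 96 h. Counting either end of the span gave the same numbers. Among all protein-coding genes, 31.1%, 26.6%, 14.7%, 11.1% and 15.2% had a region at either end. The genes called at 96 h were CDK4, CDK6, E2F3 and RB1. Fusion regions lay at 4 of the 5′ ends in DMSO and at 5, 2 and 5 after 12, 24 and 48 h, against 19.3%, 18.6%, 16.6% and 18.6% of all genes. CCND2 and CDK6 had the fusion at the 5′ end in all 4 lists.

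The narrower RefSeq promoter windows, from 250 bases before to 50 after a start, were listed for 6 of the genes (CCND3, CCNE1, CDK4, CDK6, E2F3 and RB1), 10 windows in all. GLTSCR1 overlapped 5 of these 10 in DMSO and 6, 3, 2 and 3 of them after 12, 24, 48 and 96 h. The RB1 window lies 173 kb inside the gene and 2 of the CCND3 windows 108 and 111 kb inside, so the calls at the 5′ end of RB1 do not enter these counts. Over all windows the shares were 18.4%, 14.0%, 6.81%, 5.47% and 7.3%. The fusion overlapped 2, 3, 2 and 3 of the 10 in DMSO and at 12, 24 and 48 h, with 10.5%, 9.2%, 8.4% and 10.2% of all windows. With 1 kb on either side of the same starts, GLTSCR1 was at 7 of the 10 in DMSO and at 7, 5, 5 and 5 after 12, 24, 48 and 96 h. The share over all starts was not counted at that width. Both CDK6 windows made up the overlaps common to all lists of each protein.

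Of the 24 GLTSCR1 DMSO regions at the 10 genes, 18 (75.0%, exact Clopper-Pearson 95% interval 53.3 to 90.2) were still called at 12 h. The 24 h list held 11 of them (45.8%, 25.6 to 67.2) and the 48 h list 9 (37.5%, 18.8 to 59.4). The 96 h list again held 11. Near all protein-coding genes the shares were 56.0%, 44.8%, 39.8% and 46.0%, each inside the interval. The intervals cover counting error only, and regions of 1 gene are not independent. Of the 24, 6 were in each of the 4 later lists and 6 in none of them, against 24.4% and 27.2% near all genes. Where the strongest summits had to lie within 250 bp, 3 of the 24 were in each later list, and 7 were called at 24 h. By gene, the number still called at 96 h was 2 of 4 at CCND1, 4 of 5 at CCND2, 2 of 2 at E2F3, 1 of 4 at CDK6, 1 of 2 at CDK4 and 1 of 1 at RB1. It was 0 at CCND3, which had 4 in DMSO, and at CCNE1 and CCNE2, which had 1 each.

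Of the 16 fusion DMSO regions, 11 (68.8%, 41.3 to 89.0) were still called at 12 h. The 24 h list held 9 (56.2%, 29.9 to 80.2) and the 48 h list 10 (62.5%, 35.4 to 84.8). Near all genes the shares were 70.7%, 64.2% and 67.6%, again inside the intervals. In each of the 3 later lists there were 7, and in none of them 4, against 49.5% and 15.1% near all genes. By the same summit distance, 2 of the 16 were in each of these lists, and 7 were called at 12 h. CCND1 had 5 of its 5 fusion regions called at 48 h and 3 at 24 h, and CDK6 had 3 of 6 at each time.

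**Figure D4:**
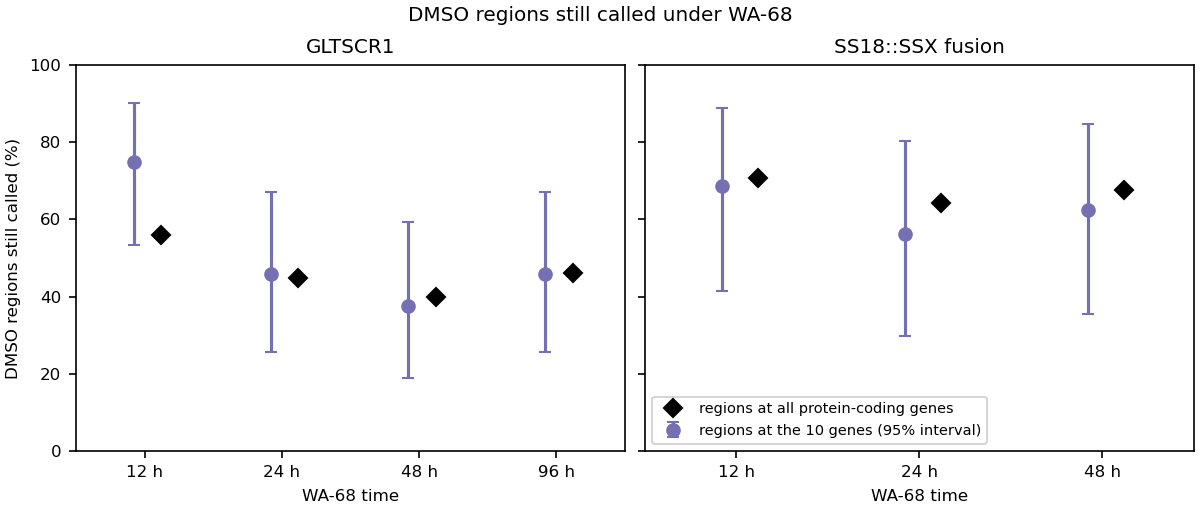
Share of DMSO regions overlapped by a region of the same antibody at each time of WA-68, for the regions at the 10 genes (circles, exact 95% intervals of counting error) and near all protein-coding genes (diamonds). All diamonds lie within the intervals, including 56.0% beside 75.0% for GLTSCR1 at 12 h.

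Regions that overlapped no DMSO region of the same antibody were also counted. For GLTSCR1 they were 2 of 22, 3 of 16, 3 of 15 and 6 of 21 after 12, 24, 48 and 96 h, against 29.7%, 35.3%, 31.4% and 35.0% near all genes. Those at 96 h were the 3 upstream of CDK6, the one near 145 kb inside it, the AGAP2 region and one past the 3′ end of CCND1, over the neighbour LTO1 (fold 6.10). For the fusion they were 5 of 16, 7 of 23 and 9 of 22 after 12, 24 and 48 h, against 36.1%, 29.6% and 32.3%. The fusion regions at CCNE1, CCNE2, E2F3 and RB1 all belonged to this group, since none of these genes had a fusion region in DMSO.

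Regions of both proteins overlapped mainly at CCND1, CCND2 and CDK6. A fusion region overlapped 11 of 24 GLTSCR1 regions in DMSO (45.8%, 25.6 to 67.2), and 11 of 22, 8 of 16 and 9 of 15 after 12, 24 and 48 h. Near all genes the shares were 55.4%, 51.0%, 51.3% and 65.9%. With strongest summits within 250 bp the counts were 4 of 24 in DMSO and 4 of 22, 5 of 16 and 6 of 15 after 12, 24 and 48 h. Some of these overlaps thus joined regions whose main summits stood apart. Seen from the fusion, GLTSCR1 overlapped 13 of 16 regions in DMSO (81.2%, 54.4 to 96.0), and 11 of 16, 10 of 23 and 10 of 22 after 12, 24 and 48 h, against 38.9%, 25.7%, 26.5% and 26.0% near all genes. The intervals at these later times were 41.3 to 89.0, 23.2 to 65.5 and 24.4 to 67.8. The share near all genes lay below the interval in DMSO and at 12 h, and inside it at 24 and 48 h. This is no test, since regions of 1 gene are not independent. CDK6 and CCND1 held 6 and 5 of the 16 fusion regions in DMSO. The overlap seen from the fusion was not recomputed under other settings. CCNE1 had GLTSCR1 at its 5′ end in 4 lists without the fusion in any list there.

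A list of 30 other genes of the G1 to S transition was read in the same way. Here a region at a gene means one within its span or the 20 kb on either side. These regions were not placed further, so a call may lie at a neighbouring gene, as the fusion calls at CDK4 did. GLTSCR1 was at 23 of them in DMSO and at 20, 14, 13 and 16 after 12, 24, 48 and 96 h. For the fusion the counts were 18 in DMSO and 9, 8 and 11 after 12, 24 and 48 h. Among all protein-coding genes the GLTSCR1 shares were 50.3% in DMSO and 47.2%, 36.6%, 28.8% and 35.8% after 12, 24, 48 and 96 h. The fusion shares were 33.9% in DMSO and 33.6%, 30.9% and 32.7% after 12, 24 and 48 h. The highest GLTSCR1 folds in DMSO were at CKS1B, a CDK-binding subunit gene (15.3), the kinase gene DYRK1A (14.0), the replicative helicase gene MCM5 (13.1) and LIN9 (9.41), whose product is part of the MuvB core. CKS1B and DYRK1A had GLTSCR1 in all 5 lists. MCM5 was missing at 48 h and LIN9 at 24 h. The highest fusion folds in DMSO were at LIN52, another MuvB gene (17.1), MNAT1, of the CDK-activating kinase (6.38), and the replication licensing genes CDC6 (5.85) and CDT1 (5.81). LIN52, MNAT1 and CDT1 had a fusion region at every time, and CDC6 had none at 48 h. At LIN52 the fusion had 14.3, 10.7 and 13.1 at 12, 24 and 48 h.

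Genes whose 9 values most resembled those of CCND1, CCND2 and CDK6 were sought by the mean absolute difference of their percentile ranks over the 9 lists, a description over libraries that share cells and time points. For CCND1 these were STK3 (4.08 points), RASEF (4.15) and ZFP36L1 (4.30). For CDK6 they were DUT (4.36), SAMD12 (5.86) and PLEKHG2 (6.06), and for CCND2 SPRY4 (5.28), DNAH2 (5.89) and FOXD1 (6.46). The 3 genes themselves had mean ranks of 86.1, 80.3 and 79.4 on a scale to 100, for CCND1, CDK6 and CCND2 in that order.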

How the data were processed

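The authors deposited 1 peak list for each of 9 libraries (5 GLTSCR1, 4 fusion); 5 input libraries were not analysed here. The submitters' processing notes name BWA, MACS2, Picard, SAMtools, Trim Galore, cutadapt, FastQC, bcl2fastq and deepTools and the build GRCh38; no source used here gives their versions or settings. The names inside the deposited files show 1 peak call per library. For each summit the authors give a fold enrichment over local background, a linear ratio, and a −log10 q-value; the lowest deposited −log10 q was 3.00 in every list. Entries with the same coordinates, which are summits of 1 region, were joined and carry the strongest summit. Contigs other than the standard chromosomes were left out. Genes, spans and promoter windows came from RefSeq (GRCh38.p14); orientation came from the promoter table or, for CCND1, CCND2, CCNE2 and CDK2, from general knowledge of these genes. An overlap needed 1 bp.

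Lookups were tested on simulated regions. Shares carry exact Clopper-Pearson 95% intervals (SciPy 1.17.1; pandas 2.3.3, Matplotlib 3.10.9). The genes, lists and rules were chosen with earlier results of these data known. All 10 genes are named; of the 30 other genes, those with the 4 highest DMSO folds for each antibody; and the 3 most alike genes for each gene in all 9 lists. Alternatives were other windows, overlaps, list lengths, merging and a −log10 q of at least 5.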

Additional observations from a re-analysis of the deposited data

How the results depend on the processing

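Of 224 values recomputed under 8 other settings and, added after seeing the data, with each later list left out of the counts over every later time, 208 stayed within 1.5 times the count or within the interval of the share. With the gene span alone, GLTSCR1 regions numbered 12, 9, 9 and 10 after 12, 24, 48 and 96 h, and fusion regions 8 in DMSO and 10, 10 and 12 after 12, 24 and 48 h. With 50 kb either side, GLTSCR1 was at 100% of the 10 genes in DMSO and at 12 and 24 h, and the fusion had 25 regions at 12 h. Joining regions within 500 bp gave 13 fusion regions in DMSO and 11, 14 and 17 after 12, 24 and 48 h. For GLTSCR1 it gave 20 in DMSO and 20, 14, 14 and 14 after 12, 24, 48 and 96 h. With strongest summits within 250 bp, 12.5% of GLTSCR1 and 12.5% of fusion DMSO regions were called at every later time, and the fusion overlapped 16.7% of GLTSCR1 regions in DMSO and 18.2% at 12 h. An alternative changes which regions are counted, by its own construction. The shares over all genes or windows were not recounted under the other settings. The shares given for the settings as reported are not their background. The interval of a share of 10 genes or windows is wide: inside it, 1 kb on either side of the start moved the promoter windows with GLTSCR1 to 5 of 10 at 24, 48 and 96 h, against 3, 2 and 3 as reported. An overlap of 50% of the shorter region left 5 of 16 GLTSCR1 regions at 24 h with the fusion, against 8. A −log10 q of at least 5, lists of equal length and leaving out a later list moved no value by over 1.5 times. No paired analysis was possible because each group had 1 library. With 24 GLTSCR1 and 16 fusion regions in DMSO, intervals are wide, and read depth is unknown.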
